A study of Mus musculus with 2 samples.

Results

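The RGK proteins are a branch of the Ras superfamily of small GTPases that inhibit high-voltage-activated calcium channels, and they are named after Rad, Gem and Kir. The mouse genes are Gem, Rrad (which encodes Rad), Rem1 and Rem2. The proteins bind the beta subunit of the channel and the pore-forming subunit, lower the calcium current, and also act on the actin cytoskeleton. Their transcript levels are themselves regulated: Gem was identified as a gene induced by mitogens, Rrad as a gene of skeletal muscle, and Rem2 is the member best known from neurons. In the cochlea, voltage-gated calcium channels drive transmitter release at the ribbon synapses of inner hair cells. The 4 genes were taken by their names in the array design and were covered by 5 of the 56605 non-control probes, 1 each for Gem, Rrad and Rem2 and 2 for Rem1. The whole design carried 37074 gene names. The genes were chosen with their values on these arrays known, so their values are a description.

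Total RNA of the cochlea was measured on 1-colour Agilent mouse arrays, with 1 array for each of 2 groups. The noise group was cochlear tissue of female C57BL/6 mice (an inbred strain) aged 7 weeks, which underwent 2 hours of intense noise and were dissected 3 hours later. The baseline group was cochlear tissue of mice of the same strain, sex and age that had no noise exposure. The labels give no number of mice for either array, and with 1 array a group there was no replicate error, no test and no p-value. A difference of at least 2-fold, a log2 ratio of at least 1 in size, was used as a rule of size.

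Each probe is 60 bases long, and the end of each is shown because the result for a gene rests on 1 or 2 such probes. The following are the last 30 bases, 5′ to 3′, as the scanner files give them, with the pentamer ATTTA in capitals.
Gem: cagctgaattatATTTAttattttgcaaat
Rrad: tgtccaggcactattcgagggggttgtgcg
Rem1 (clone probe): tgcctggaaatttctgcctggatatgccac
Rem1 (RefSeq probe): gtctcagacaatccataaagtcagtgaatt
Rem2: aaagtgctttgtagcctcctggatggagct
The scanner files give a position for each probe, taken here as mm9. The Gem probe lies on the plus strand at chr4:11641692-11641751 and the Rrad probe on the minus strand at chr8:107152532-107152591. One Rem1 probe is assigned to the RefSeq transcript (chr2:152460868-152460927, plus strand) and the other to a cDNA clone (chr2:152463599-152463658, plus strand). The Rem2 probe lies at chr14:55098859-55098918 on the plus strand. The gene annotation of mm9 was not used here, so it is not stated whether a probe lies in coding or untranslated sequence.

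The Gem probe was the most AT-rich of the 5, with 35.0% G and C, against 45.0% for Rem2, 46.7% (clone probe) and 48.3% (RefSeq probe) for Rem1, and 55.0% for Rrad. The median over all non-control probes was 41.7%. ATTTA, the core pentamer of AU-rich elements that mark many short-lived messenger RNAs, occurred once in the Gem probe and in no other RGK probe on the strand shown. It occurred on that strand in 8.08% of all non-control probes, and in 17.0% when both strands were searched. None of the 5 sequences was shared with another probe on the array.

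Gem was the RGK gene that differed between the arrays by more than 2-fold. Its processed signal, the scanner software's background-subtracted and detrended spot brightness, was 292 ± 29.2 after noise and 56.5 ± 5.75 at baseline. The ± here is the error that the scanner software assigned to a single spot, not a spread between mice. Before background subtraction, the mean brightness of the Gem spot was 293 (noise) and 74.3 (baseline) over a local background of 22.0 on both arrays. The noise signal of Gem lay well above the baseline signal, with no overlap of the scanner errors. After each array was scaled to its own 75th percentile, at a signal of 316 (noise) and 278 (baseline), Gem was 4.55-fold higher after noise, a log2 ratio of 2.19 with a scanner error of 0.21. Its log2 ratio less and plus 2 such errors ran from 1.77 to 2.60. RNA of a whole tissue was measured, so more cells that express Gem and more Gem RNA per cell cannot be told apart.

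Of the 4 RGK genes, 1 was at least 2-fold higher and none at least 2-fold lower. A total of 26528 genes were well above background on both arrays, and 0.611% of them (162 genes) passed 2-fold upward after noise and 1.25% (332 genes) downward. Because the genes were chosen with these ratios in view, nothing is read from their share. Gem ranked 7 of 26528 genes by log2 ratio from the highest, and the central 95% of genes lay from -0.77 to 0.63. The split of the genes past 2-fold moved with the scaling: 32.8% of them were higher after noise in the main processing, 65.4% with spike-in scaling and 43.1% with the normexp background, a model-based background correction.

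**Figure D1:**
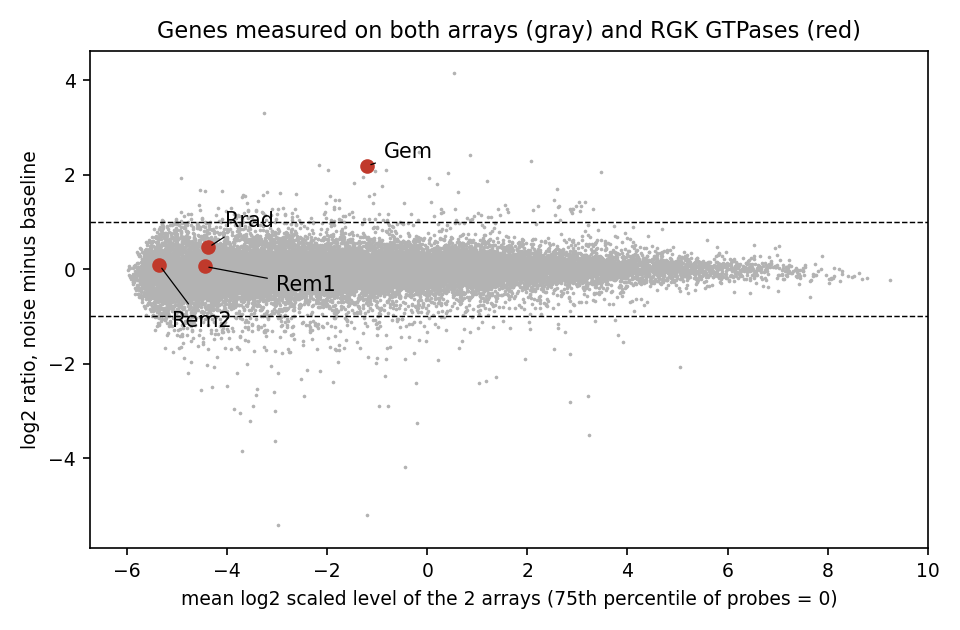
Log2 ratio (noise minus baseline) against the mean log2 scaled level of both arrays, for each of the 26528 genes measured on both arrays (gray) and for the RGK genes (red); dashed lines mark 2-fold. Gem stands at 2.19, above nearly all genes, and Rrad, Rem1 and Rem2 lie inside the dashed lines at the dim end of the plot.

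Rrad, the RGK gene first described in muscle, came next in log2 ratio and stayed under 2-fold. Its signal was 17.8 ± 2.13 after noise and 11.4 ± 1.66 at baseline, on arrays where the lowest signal of any probe called well above background was 4.58 and 4.35. The Rrad signals were thus higher after noise but only a few times the lower limit of measurement. The scaled difference was 1.38-fold, a log2 ratio of 0.46 with a scanner error of 0.27, and less and plus 2 errors it ran from -0.08 to 1.004, a range that includes 0. Among the dimmest 25% of measured genes, where Rrad, Rem1 and Rem2 all lay, the log2 ratios of the central 95% spanned -0.97 to 0.75, which is wider than for all genes. In all, 5.42% of measured genes had a higher log2 ratio than Rrad.

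Rem1, an RGK gene known from heart and muscle, had nearly equal values on both arrays at both of its probes. The clone probe gave signals of 18.5 ± 2.09 (noise) and 15.2 ± 1.77 (baseline), a log2 ratio of 0.10. The RefSeq probe gave 11.8 ± 1.54 (noise) and 10.3 ± 1.40 (baseline), a log2 ratio of 0.02. The scanner errors of the arrays overlapped at each probe, and the median over both probes was 0.06, or 1.04-fold. The probes differed from each other by less than the spread between probes of a gene, an SD of 0.27 in log2 ratio over 9348 genes with at least 2 measured probes. Rem1 is the one RGK gene for which a further probe could be set beside the first, since Gem, Rrad and Rem2 each had 1 probe printed once per array.

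Rem2, the RGK gene of neurons, was the closest to the limit of measurement. Its signal was 7.96 ± 1.20 after noise and 6.58 ± 1.08 at baseline, and the scanner errors overlapped. The log2 ratio was 0.09, or 1.07-fold, with a scanner error of 0.32. From this error, the log2 ratio less and plus 2 errors ran from -0.55 to 0.73, a range that includes 0.

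**Figure D2:**
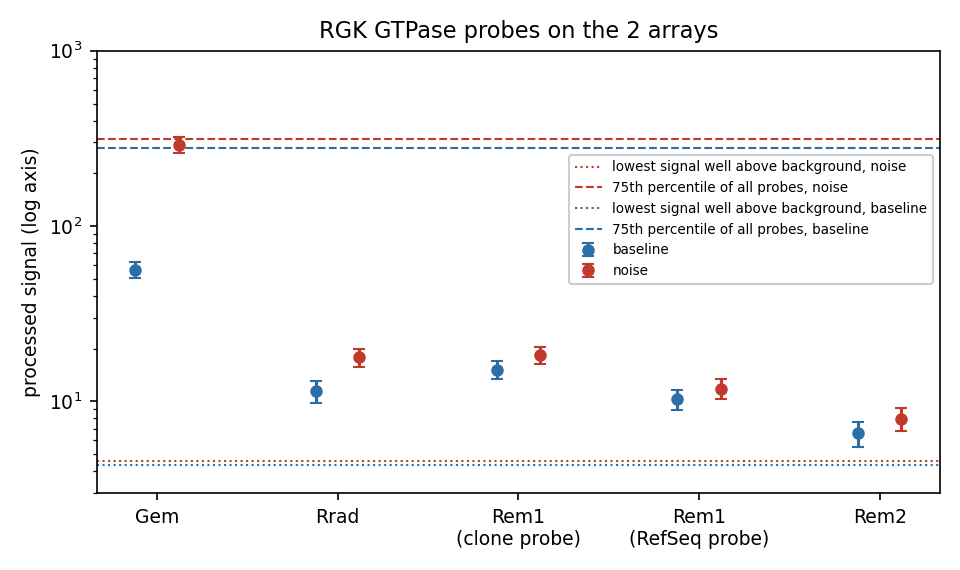
Processed signal (log axis) of the 5 RGK probes on the baseline array (blue) and the noise array (red), 1 spot each; bars are the scanner software's error of the spot, dashed lines the 75th percentile of all probes on each array and dotted lines the lowest signal called well above background. The Gem signals of 56.5 and 292 lie far apart, whereas the signals of the other 4 probes lie between 6.58 and 18.5, close to the dotted lines.

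The members' log2 ratios, by which they were chosen, differed among themselves as follows, on 1 array a group. Gem exceeded Rrad by 1.72, Rem2 by 2.09 and Rem1 by 2.13. Rrad exceeded Rem2 by 0.37 and Rem1 by 0.40, and Rem1 and Rem2 differed by -0.03 (Rem1 minus Rem2).

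The values of the RGK genes depended on how the background was treated. With the normexp background, which adds an offset of 50 to every signal, Gem was 2.76-fold higher (log2 ratio 1.46), still past 2-fold, and ranked 13. With no filter on dim probes its value was the same and its rank 25, among 37067 genes. The normexp background left Rrad at -0.03, Rem1 at -0.10 and Rem2 at -0.12, so the sign of these turned. The median of all genes was then -0.06, and less that median the values were 0.03 (Rrad), -0.04 (Rem1) and -0.06 (Rem2). The offset of 50 is larger than any of their signals. Across all 10 alternatives Gem stayed past 2-fold, between 1.46 and 2.41 in log2 ratio. Rrad, Rem1 and Rem2 were past 2-fold in none of the 9 that kept them. A filter that removed the dimmest 25% of the measured probes left out Rrad, Rem1 and Rem2 altogether.

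**Figure D3:**
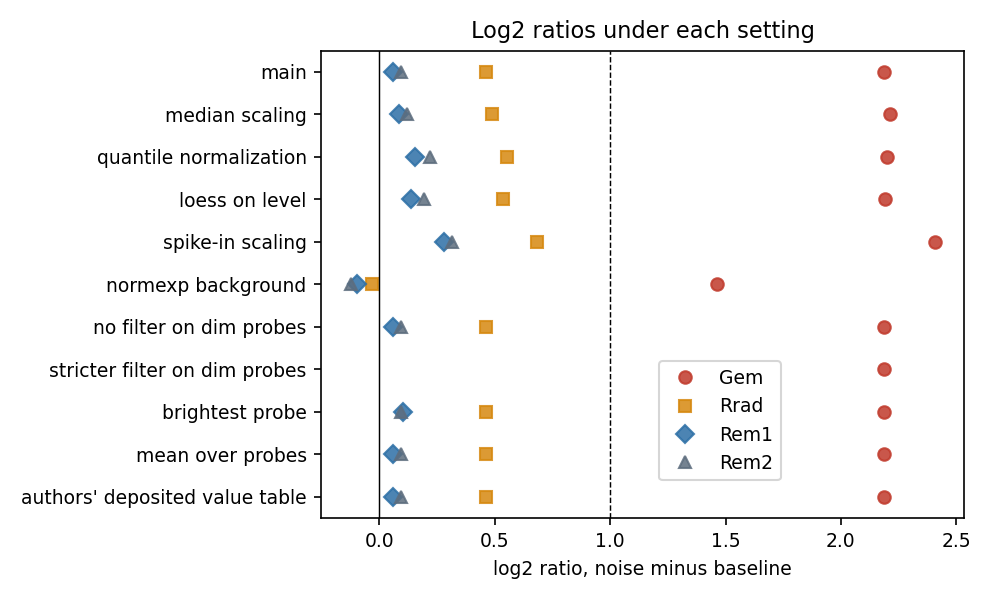
Log2 ratio (noise minus baseline) of each RGK gene under the main processing and the 10 alternatives; the dashed line marks 2-fold. Gem lies right of the line in every row, at 1.46 with the normexp background and 2.41 with spike-in scaling as its extremes, and the other genes lie left of it wherever they were measured.

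Among genes with a standard symbol whose measured probes pointed in 1 direction, those nearest to Gem in log2 ratio, over the 2 arrays, were Ccl7 (2.21) and Rbp7 (2.30) next above it and Helt (2.10) and Ccl2 (2.09) next below it. Ccl7 and Ccl2 encode chemokines that attract monocytes, Rbp7 a retinoid-binding protein and Helt a transcriptional repressor. With 1 array a group, likeness here means only a similar difference between these arrays.

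All 18 listed subunits of voltage-gated calcium channels, among them the targets of RGK proteins, were measured, and none was 2-fold different in either direction. Over all measured genes the shares were small as well, 0.611% at least 2-fold higher and 1.25% lower, so nothing is read from this count. The list also holds the low-voltage-activated channels Cacna1g (-0.39), Cacna1h (-0.13) and Cacna1i (-0.41), which lie outside the high-voltage-activated class that RGK proteins inhibit. Of all 18 genes, 14 had a log2 ratio below 0 and 4 above, with a median of -0.19 against -0.01 over all measured genes. These values cover more than the RGK targets. The beta subunits, which RGK proteins bind, had log2 ratios of 0.03 (Cacnb1), -0.32 (Cacnb2), -0.07 (Cacnb3) and -0.31 (Cacnb4). The 4 probes of Cacnb2 ranged from -0.74 to 0.07, and the median of their signals was 35.6 (noise) and 40.6 (baseline). Cacnb3 was measured at signals of 475 (noise) and 440 (baseline) and Cacnb4 at 164 and 179.

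Of the pore-forming subunits, Cacna1d, which carries most of the calcium current of inner hair cells, had the highest log2 ratio of the list, 0.24, with signals of 84.7 (noise) and 63.2 (baseline) and its 3 probes between 0.20 and 0.40. Cacna1b, a neuronal channel of presynaptic terminals, was at 0.07. At the other end stood Cacna1s, the channel of skeletal muscle, at -0.77 with signals of 65.2 and 98.0. Next came the auxiliary subunit gene Cacna2d2 at -0.51, with signals of only 11.8 (noise) and 16.3 (baseline). Cacna1c, the channel of heart and smooth muscle, was at -0.44 from 2 of its 4 probes. With the normexp background Cacna1b and Cacnb1 were both at -0.06, as was the median of all genes. Spike-in scaling raised the log2 ratio of every gene by 0.22 and with it the median of all genes to 0.21. The calcium channel median was then 0.03, still below that of all genes, as it was with the other 9 alternatives.

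Other binding partners and effectors of RGK proteins also lay within 2-fold. Of 20 genes, all measured, none was 2-fold different, against 0.611% of all measured genes higher and 1.25% lower. Of the 20, 10 lay above 0 and 10 below, and the median was -0.02. The list holds calmodulin genes, which encode a calcium sensor that binds RGK proteins, the Ywha and Sfn adaptor proteins that hold them in the cytosol, and Kif9 and Gmip, which encode partners of Gem. Sfn was highest at 0.65, followed by Rock1, a kinase that acts on the actin cytoskeleton, at 0.26 and the calmodulin gene Calm2 at 0.15. Lowest were the neuronal calmodulin-dependent kinase genes Camk2a at -0.44 and Camk2b at -0.34 and the calmodulin gene Calm3 at -0.24. The Gem partners Gmip (0.10) and Kif9 (-0.06) lay close to 0.

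The other small GTPases of the Ras family stayed within 2-fold. Of 32 names listed, 30 were measured. Of the others, 1 (Eras) was well above background on neither array and 1 (Hras1, an older name of Hras) matched no probe. None of the 30 was 2-fold different, again beside small shares over all measured genes, 0.611% higher and 1.25% lower. Of the 30, 15 lay above 0 and 15 below, and the median was 0.00. The highest were Rhebl1, a Rheb-like activator of growth signalling, at 0.65, followed by Rergl at 0.47 and the related growth inhibitor gene Rerg at 0.33. The lowest were the neuronal GTPase genes Diras2 at -0.98, with signals of 519 (noise) and 899.7 (baseline), and Rasd2 at -0.92, with 228 and 381, followed by Rasl10b at -0.58. Rasd1, a GTPase gene induced by glucocorticoids, was at 0.22.

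**Figure D4:**
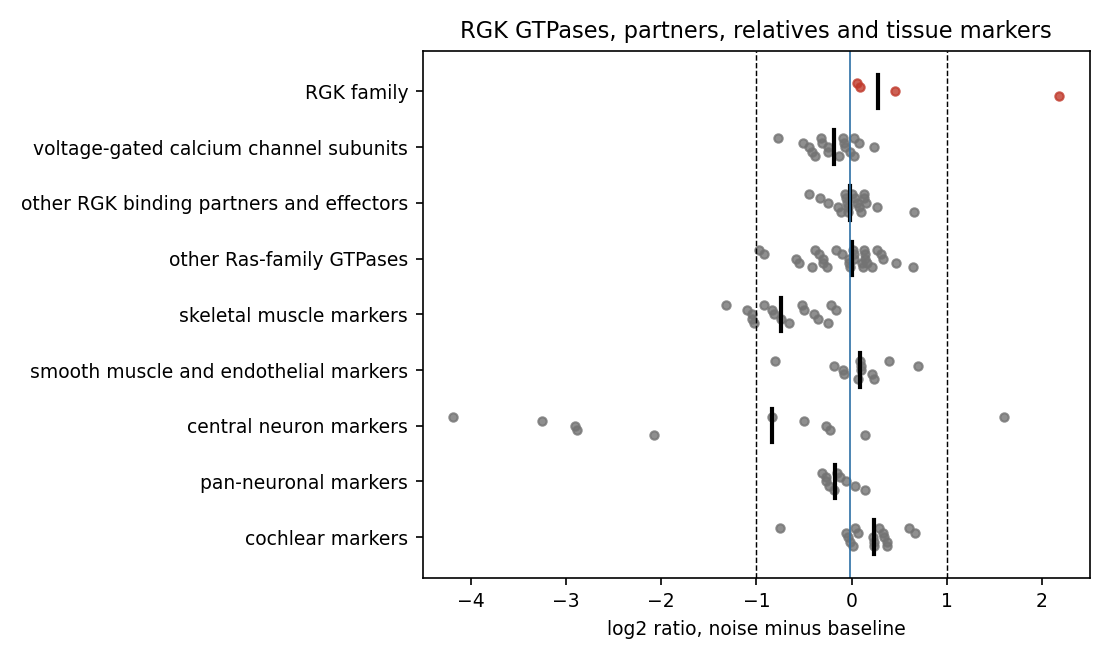
Log2 ratio (noise minus baseline) of each measured gene in the RGK family (red), in lists of their partners and relatives and in lists of tissue markers (gray); black bars are list medians, the blue line the median of all measured genes and the dashed lines 2-fold. Gem at 2.19 lies beyond the dashed line, the calcium channel, partner and Ras-family genes lie between the lines, and skeletal muscle and central neuron markers extend to the left.

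Markers of several tissues differed between the arrays, and those of the tissues in which RGK genes are known are given here beside the RGK values. All 17 measured skeletal muscle markers of 18 had a log2 ratio below 0, with a median of -0.74. Of these, 5 were at least 2-fold lower after noise. Over all measured genes 1.25% were at least 2-fold lower and 0.611% higher, and the marker counts stand beside these shares. The lowest were Mb, which encodes the oxygen-binding protein myoglobin, at -1.32, and the fast-fibre myosin genes Myh1 (-1.09) and Myh2 (-1.05). With spike-in scaling 1 of the 17 was at least 2-fold lower and with the normexp background 2 were. The summed processed signal of the 17, before scaling, was 4139 (noise) and 6703 (baseline), a log2 ratio of -0.88 once the arrays were scaled, and the muscle transcription factor gene Myog was not well above background on either. Beside these, Gem was at 2.19, Rrad at 0.46 and Rem1 at 0.06, with the signals of Rrad and Rem1 near background. A link between the RGK values and the muscle values was not tested. Smooth muscle and endothelial markers had a median of 0.09, with 8 of 12 above 0, none 2-fold different and an unscaled summed signal of 10033 (noise) and 9300 (baseline), which is a log2 ratio of -0.07 after scaling. The largest differences among them were Cldn5, a tight junction gene of endothelium, at -0.81, and Myh11, a myosin of smooth muscle, at 0.70.

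Central neuron markers, the inhibitory transmitter genes among them, had a median of -0.83 over 11 measured genes of 12. Of the 11, 5 were at least 2-fold lower and 1, the Purkinje cell gene Pcp2 (1.60), higher. The shares over all measured genes were 1.25% and 0.611%. The lowest measured on both arrays were Glra1 (-4.19), Slc32a1 (-3.25) and Gad2 (-2.90). The stricter filter on dim probes kept 8 of the 11 with 3 at least 2-fold lower. The unscaled summed signal was 2465 (noise) and 3977 (baseline), a scaled log2 ratio of -0.87. On the noise array the largest signals in this sum were those of Calb2 (1276) and Slc17a6 (550), with log2 ratios of 0.14 and -0.23. The remaining gene of the 12 listed, the glycine transporter gene Slc6a5, was well above background at baseline only. Set against the higher of its own dim signal and the lowest signal called well above background on the noise array, it was at least 45.6-fold lower after noise. Pan-neuronal markers had a median of -0.17 over 10 genes with none 2-fold different, and their unscaled summed signal was 29518 (noise) and 28678 (baseline), a scaled log2 ratio of -0.14. Rem2, the neuronal RGK gene, was at 0.09. Of the labelled tissue, all 17 listed cochlear genes were well above background on both arrays, with a median of 0.24 and none 2-fold different. Of the 17, 13 lay above 0 and 4 below. The highest were Pou4f3 at 0.67 and Otoa at 0.60. Slc26a5, the outer hair cell motor, was lowest at -0.75, with signals of only 5.62 (noise) and 8.35 (baseline). The Slc26a5 value rests on 1 of its 2 probes. Its other probe met the background call after noise but not at baseline, so it was left out of that value. Adipocyte markers were lower in all 8 measured genes (median -1.25, 6 at least 2-fold lower), and leukocyte markers had a median of 0.08 over 11 genes with none 2-fold different. The part of tissue composition in the Gem difference was not tested.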

How the data were processed

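The intensity of each spot comes from scanner files that the authors deposited, made with Agilent Feature Extraction 11.5.1.1, per the file headers, which subtracted background and detrended within each array. The table of log2 values that the authors deposited equalled log2 of the same processed signals less 8.30 (noise) or 8.12 (baseline), within 0.01 at 100% of measured probes. The column medians were -2.81 and -2.79, and the direction was the same. Here, control spots and spots with outlier flags were left out (77 and 58 non-control spots), log2 signals of repeat spots were averaged, and the 75th percentile over 56590 probes was subtracted array by array. Probes called well above background on both arrays counted as measured; 75.3% (noise) and 75.2% (baseline) of probes met this on each array alone. A gene took the median log2 ratio of its measured probes. No spot was saturated. Repeat spots gave an SD of 0.07 in log2 ratio. The number of arrays limits the precision. Both arrays shared a slide and a scan, per the file headers, so neither separates the groups.

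All 4 RGK genes were named. From the calcium channel, partner and Ras-family lists, members past 2-fold (there were none) and up to 3 highest and 3 lowest were named, with the beta subunits. Up to 3 members of each marker list were named, past 2-fold or not, and the 2 nearest genes on each side of Gem. Cacna1g, Cacna1h, Cacna1i, Gmip, Kif9, Rasd1, Myog, Pcp2, Slc6a5, Calb2 and Slc17a6, beyond this rule, were chosen after they were seen. The members and lists were chosen with earlier results of these data known. Alternatives (scaling, background, filter, choice of probe, source of values) were run with limma 3.58.1 for normexp and Python 3.11.15 otherwise, and the gene step was tested on simulated data.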

Additional observations from a re-analysis of the deposited data

How the results depend on the processing

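Gem stayed at least 2-fold higher with all 10 alternatives, and moved by more than the between-probe SD with 1 of them, the normexp background (1.46). Rrad moved likewise with that background alone (-0.032). Rem1 and Rem2 moved by less than that SD with all 9 alternatives that kept them, and the stricter filter on dim probes gave no value for Rrad, Rem1 or Rem2. The count of genes at least 2-fold higher was 351 with spike-in scaling, 56 with the normexp background and 672 with no filter on dim probes, against 162. The count at least 2-fold lower was 186, 74 and 1296 with these, and 192 with the stricter filter, against 332. The filters change how many genes are counted, and spike-in scaling shifts every ratio by 0.22; the cause of the other changes was not tested. The 8 spike-in probes ranged from -0.20 to 0.40 before scaling, so they fix that shift loosely. No paired analysis was possible because there was a single array per group; leaving out a replicate was likewise impossible. Depth is limited for Rrad, Rem1 and Rem2, whose signals lie near background.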
